A study of Homo sapiens with 6 samples.

Results

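Myotonic dystrophy is a muscle disease caused by expanded repeats in transcribed DNA. In type 1 the repeat lies in DMPK, and in type 2 it lies in an intron of CNBP, the gene that was disrupted in these cells. RNA made from either repeat holds muscleblind (MBNL) proteins, which regulate splicing, away from their targets, while CELF1, which acts against MBNL on many of the same exons, is raised in type 1. The insulin receptor transcript is a well-known target of both families.

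Described here are 9 genes tied to this disease, out of 19892 in the deposited table. They were taken by gene symbol, with earlier results of these data known. They are MBNL1, MBNL2, MBNL3, CELF1, CELF2, DMPK, its neighbours SIX5 and DMWD, and INSR. RNA was sequenced from HEK293 cells in which CRISPR-Cas9 had been used to disrupt CNBP (3 libraries) and from wild-type HEK293 cells (3 libraries). HEK293 is a human line from embryonic kidney. The labels do not say whether the knockout libraries came from 1 clone or several, and neither group is labelled as carrying a repeat expansion.

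The table gives 1 level per gene and group, in FPKM (sequenced fragments scaled to transcript length and to all mapped fragments, so that genes can be compared by level), with no value per library. No spread between libraries, standard error or p-value can therefore be given for any difference, and the depth is unknown. Ratios are log2 of the knockout level over the wild-type level. CNBP mRNA stood at 214 FPKM in knockout and 202 FPKM in wild type, so its mRNA level does not check which column is which. In bulk RNA, fewer cells with a transcript and less of it per cell cannot be told apart. Of 8 genes chosen as HEK293 markers, VIM (520 FPKM in knockout, 510 in wild type), INA (20.5 and 17.0), WT1 (3.79 and 3.88), PAX2 (2.16 and 2.71) and NEFM (1.02 and 0.912) were detected, PAX8 was below 1 FPKM in both groups, and LHX1 and NEFL were listed at 0. Both belong to 669 genes that have a transcript length of 0 in the table and a level of 0 in both groups, so that their 0 need not mean an absent transcript. Of 13 skeletal muscle genes, 2 reached 1 FPKM in one group, PAX3 (7.10 in knockout, 6.07 in wild type) and MB (1.23 and 1.37). MYOD1 stood below 1 FPKM in both groups, and MYF6 and MYH7 were listed at 0. Of 6 blood and endothelial genes, HBA1 alone reached 1 FPKM (3.47 in knockout, 2.96 in wild type).

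The sequences below show the DMPK repeat and exons of INSR and the MBNL genes. All are reference transcripts of GENCODE release 29 and were not read from these cells. The first is the start of the CTG repeat in the DMPK transcript, downstream of the stop codon, where the reference holds 20 CTG units in 5 of the 7 full-length coding transcripts; the length of the repeat in HEK293 cells was not analysed here. The others are exons that are skipped in some coding transcripts, with the exon in capitals and 12 bases of the flanking exons in lower case. In INSR it is exon 11, whose skipping gives the receptor form that predominates in myotonic dystrophy muscle. In MBNL1 it is the exon of 54 bases through which muscleblind proteins regulate their own transcript, and further downstream an exon of 36 bases that has a counterpart in all 3 MBNL genes.
DMPK repeat: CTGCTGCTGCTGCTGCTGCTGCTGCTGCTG
INSR exon 11: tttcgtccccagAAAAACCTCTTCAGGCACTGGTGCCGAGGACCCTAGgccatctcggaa
MBNL1 exon of 54 bases: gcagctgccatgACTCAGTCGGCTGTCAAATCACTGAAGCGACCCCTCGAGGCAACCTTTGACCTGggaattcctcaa
MBNL1 exon of 36 bases: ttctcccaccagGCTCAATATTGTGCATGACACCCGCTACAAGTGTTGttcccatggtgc
MBNL2 exon of 36 bases: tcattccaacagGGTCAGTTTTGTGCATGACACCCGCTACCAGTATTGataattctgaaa
MBNL3 exon of 36 bases: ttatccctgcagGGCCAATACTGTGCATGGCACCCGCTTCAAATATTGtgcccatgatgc

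The MBNL1 exon of 36 bases matched that of MBNL2 at 31 bases and that of MBNL3 at 29, and those of MBNL2 and MBNL3 matched at 28. The values in the table are sums over all transcripts of a gene, so inclusion of these exons was not measured and the results below concern levels alone. Each of these exons has a length divisible by 3, so that skipping it keeps the reading frame.

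None of the 9 genes differed by 1.5-fold or more between knockout and wild-type cells. This fold was used as the threshold because there is no test, and 4.27% of the 13219 compared genes reached it in either direction (1.48% higher and 2.78% lower in knockout). Compared genes had at least 1 FPKM in one group and a level above 0 in both, and all 9 genes met this. Their median log2 ratio was 0.03, beside -0.01 over all compared genes, with 7 of the 9 above 0 and 2 below, where 48.7% of all compared genes lay above 0. Within the range of mean level that these genes span, 1.59% of 8624 genes reached 1.5-fold, so that a count of 0 among 9 is near this background. At a fold of 1.2, which 21.8% of compared genes reached in either direction, the count was also 0. That count rests on DMPK, which fell just short at 1.199-fold. With ratios centred on the median of all compared genes, DMPK was at 1.204-fold and the count was 1. Of the 9 genes, 7 lay within 10% of the wild-type level, as did 51.4% of all compared genes. The shares at 1.2-fold and within 10% were not taken within the range of level of the 9 genes.

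**Figure D1:**
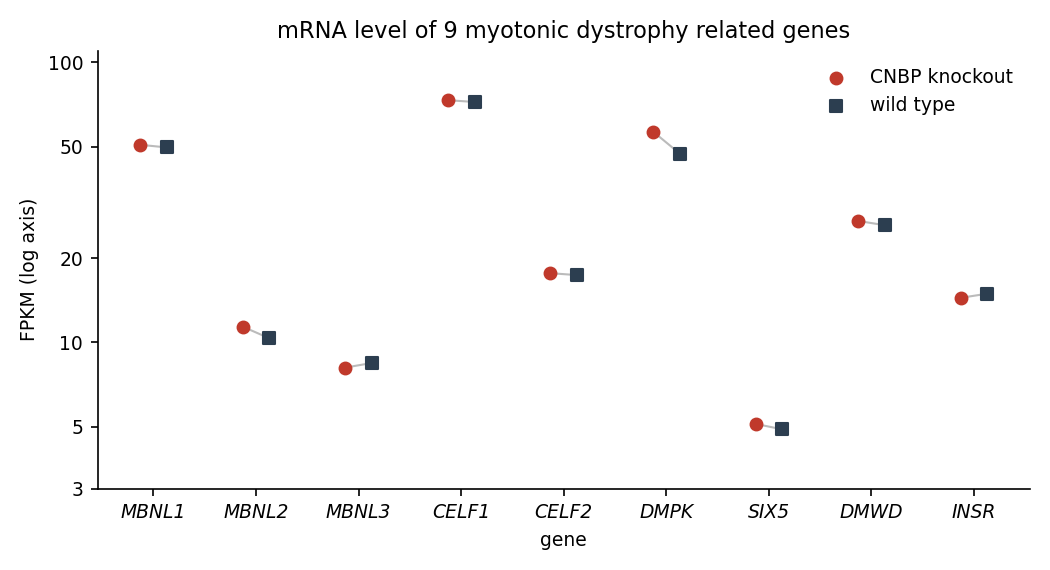
Level of each gene in FPKM on a log axis, 1 deposited value per group, in CNBP knockout (red circles) and wild-type cells (dark squares). The pairs nearly coincide for 7 genes, and the widest gap is that of DMPK, at 56.6 FPKM in knockout and 47.2 FPKM in wild type.

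The muscleblind proteins bind RNA through CCCH zinc fingers and promote the adult pattern of splicing. MBNL1, the main form in adult muscle, stood at 50.8 FPKM in knockout and 49.7 FPKM in wild type, a log2 ratio of 0.03. With the median of its 20 nearest genes taken off, that ratio was -0.02, so its direction is not fixed. MBNL2, known for its role in the brain, stood at 11.4 FPKM in knockout and 10.3 FPKM in wild type. Its log2 ratio of 0.14, a difference of 10.0%, was the second largest of the 9 genes. MBNL3, which is expressed mainly in placenta and in regenerating muscle, stood at 8.13 FPKM in knockout and 8.44 FPKM in wild type, a log2 ratio of -0.05. The summed MBNL level was 70.3 FPKM in knockout and 68.5 FPKM in wild type. MBNL1 made up 72.2% of it in knockout and 72.6% in wild type, MBNL2 16.2% and 15.1%, and MBNL3 11.6% and 12.3%.

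The CELF proteins carry RNA recognition motifs, bind GU-rich RNA, and act in splicing, mRNA decay and translation. CELF1, the most abundant of the 9 genes, stood at 73.3 FPKM in knockout and 72.2 FPKM in wild type, a log2 ratio of 0.02 that was -0.04 with the median of its 20 nearest genes taken off. CELF2 stood at 17.7 FPKM in knockout and 17.4 FPKM in wild type, also a log2 ratio of 0.02. Both genes were thus within 2% of the wild-type level, and CELF1 made up 80.6% of their sum in each group. The summed level of the CELF pair was 1.29 times that of the 3 MBNL genes in knockout and 1.31 times in wild type. CELF1 alone was 1.44 times MBNL1 in knockout and 1.45 times in wild type. Part of CELF1 lies opposite NDUFS3 (173 FPKM in knockout, 165 in wild type) and PTPMT1 (22.9 and 26.1) on the other strand, and whether counting used the strand is not stated in the labels or notes.

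Reads of related genes can be hard to assign. The longest coding sequences of the paralogues were alike at 69.1% of aligned bases for MBNL1 and MBNL2, 72.8% for MBNL1 and MBNL3, 69.4% for MBNL2 and MBNL3 and 74.4% for CELF1 and CELF2. No stretch of 50 bases was identical between any of these pairs over all their full-length coding transcripts. The labels give no read length.

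DMPK, SIX5 and DMWD lie next to each other on chromosome 19. DMPK encodes the myotonic dystrophy protein kinase, a serine/threonine kinase of muscle, and its repeat lies close to the promoter of SIX5. DMPK stood at 56.6 FPKM in knockout and 47.2 FPKM in wild type. This log2 ratio of 0.26, a difference of 19.9%, was the largest of the 9 genes. Among all compared genes 22.0% had a ratio at least as far from 0, and among the 1000 genes nearest to DMPK in mean level 12.7% did. By level DMPK ranked above MBNL1 in knockout and below it in wild type, the one change of order among the 9 genes. SIX5, a homeodomain transcription factor, was the least abundant of the 9, at 5.12 FPKM in knockout and 4.89 FPKM in wild type. DMWD, a WD-repeat protein, stood at 27.1 FPKM in knockout and 26.2 FPKM in wild type. The log2 ratios were 0.07 for SIX5 and 0.05 for DMWD, and DMPK was 2.09 times DMWD in knockout and 1.80 times in wild type.

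Of the 20 nearest compared genes to DMPK, 10 on each side and SIX5 and DMWD among them, 14 had ratios above 0, beside 48.7% of all compared genes. Their median log2 ratio was 0.09, and 4 were at or above that of DMPK. With that median taken off, DMPK had a log2 ratio of 0.18, while DMWD was at -0.04 and SIX5, with its own neighbours, at -0.05. Of the 13 genes listed around the 3 members, 9 were measured, with a median log2 ratio of 0.15. All 9 are among the same 20 genes. The most abundant were SNRPD2, a core spliceosome protein, at 720 FPKM in knockout and 673 FPKM in wild type, and SYMPK, a scaffold of mRNA 3′ processing, at 62.4 FPKM in knockout and 56.1 FPKM in wild type. The gene model AC011530.4, which lies between DMPK and DMWD and overlaps both on the same strand, stood at 5.19 FPKM in knockout and 5.86 FPKM in wild type. Its reads and theirs cannot be told apart where they overlap. DM1-AS overlaps DMPK and SIX5 on the opposite strand, and its level was not analysed here.

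**Figure D2:**
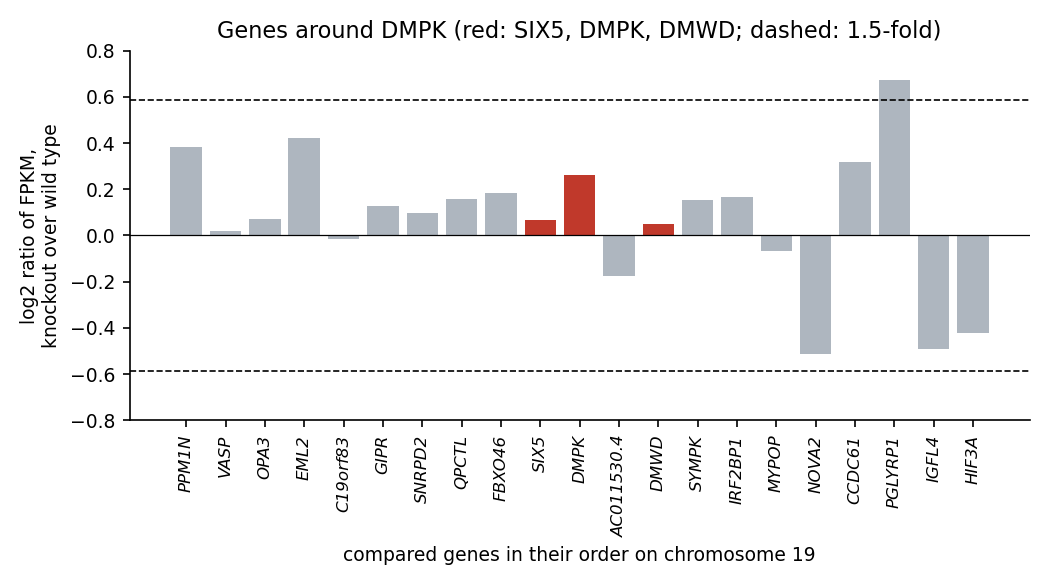
Log2 ratio of knockout over wild type for DMPK and the 10 compared genes on each side, in their order on chromosome 19, with SIX5, DMPK and DMWD in red and the 1.5-fold threshold dashed. DMPK (0.26) stands above SIX5 (0.07) and DMWD (0.05), AC011530.4 beside it lies at -0.18, and PGLYRP1, at 1.43 FPKM in knockout and 0.900 FPKM in wild type, is the one gene past 1.5-fold and was named after its value was seen.

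INSR, the insulin receptor, stood at 14.4 FPKM in knockout and 14.9 FPKM in wild type. Its log2 ratio was -0.05, a difference of -3.34%. As the table sums both receptor forms, a shift between the transcripts with and without exon 11 would not appear in it. IGF1R, the closest relative of INSR, stood at 63.8 FPKM in knockout and 65.4 FPKM in wild type. It was named after its value was seen.

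All 9 ratios lay within the central 95% of ratios of the 1000 genes nearest in mean level, and 7 lay within the middle 50%. The exceptions to the latter were DMPK, whose middle range ended at 0.11, and MBNL2, whose range ended at 0.10. The central 95% was widest for SIX5, the least abundant, from -0.64 to 0.50, and ran from -0.38 to 0.32 for CELF1. These ranges describe how far other genes differed between the columns, and are not a measure of the spread between libraries.

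**Figure D3:**
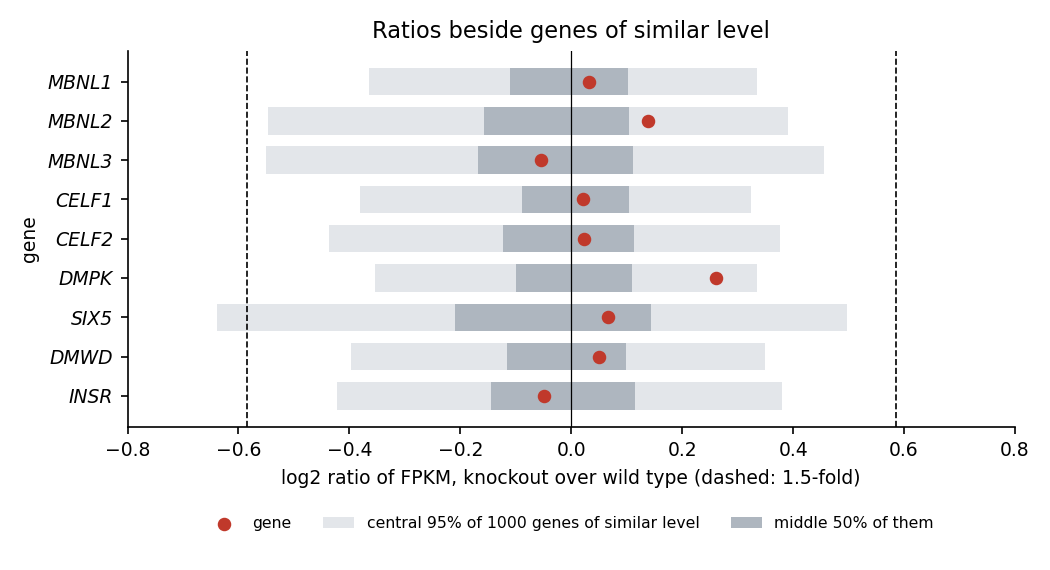
Log2 ratio of knockout over wild type for each gene (red), over the central 95% (light) and middle 50% (dark) of the 1000 compared genes nearest in mean FPKM. DMPK at 0.26 and MBNL2 at 0.14 lie outside the middle range, and no gene lies outside the central 95% or past the dashed lines at 1.5-fold.

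The nearest compared genes on either side of the other members had log2 ratios between -0.52 and 0.25. MBNL2 lies between HS6ST3 (log2 ratio 0.25) and RAP2A (0.21), and the median of its 20 nearest genes was 0.08. MBNL3 lies between RAP2C (-0.16) and HS6ST2 (0.02), CELF2 between GATA3 (0.06) and USP6NL (0.11), and CELF1 between PSMC3 (-0.09) and NDUFS3 (0.07). In order of start position MBNL1 lies between IGSF10 (-0.52) and TMEM14E (0.18), both under 2 FPKM in each group. TMEM14E overlaps MBNL1 on the other strand. INSR lies between ZNF557 (0.02) and ARHGEF18 (-0.31). Beside the genes already named, FBXO46 next to SIX5 had a log2 ratio of 0.18.

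Lists of genes related to the members by family, pathway or role were compared in the same way. Of 71 measured genes in 8 lists, 1 was higher and 3 were lower by 1.5-fold, or 5.63%, beside 4.27% of all compared genes. FOXO1, a transcription factor that insulin signalling holds out of the nucleus, stood at 16.3 FPKM in knockout and 9.33 FPKM in wild type, 1.75-fold higher in knockout. The 3 lower genes all had low levels, and none of them reached 1.5-fold with a pseudocount of 1. They include CDC42BPG, a kinase related to DMPK (1.32 FPKM in knockout, 2.18 in wild type), and the cardiac troponin TNNT2 (0.949 and 1.82).

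FOXO1 belongs to the list of insulin receptor signalling, where 14 of 19 measured genes lay above 0 (48.7% of all compared genes) and the median log2 ratio was 0.09. The kinase PDPK1, named after its value was seen, stood at 36.5 FPKM in knockout and 25.1 FPKM in wild type, which is 1.45-fold and short of the threshold. Relative to the median of its 20 nearest genes the log2 ratio was 0.41, beside 0.54 as deposited. AKT2, the most abundant of the list and likewise named after its value was seen, stood at 259 FPKM in knockout and 242 FPKM in wild type.

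The kinases related to DMPK had a median of -0.04 over 6 genes, and CDC42BPG was the one past the threshold. The homeodomain relatives of SIX5 and their EYA partners in development had a median of 0.06 over 7 measured genes, with EYA4 (21.1 FPKM in knockout, 19.9 in wild type) and EYA3 (17.2 and 16.5) the most abundant. The list of DMWD relatives and the deubiquitinases that bind such WD-repeat proteins had a median of 0.14 over 5 genes, and its most abundant were USP1 (65.5 and 58.9) and WDR48 (31.8 and 28.8). Of the 4 other CELF genes, CELF5 alone was measured, at 1.44 FPKM in knockout and 1.39 FPKM in wild type.

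Proteins that work with MBNL and CELF or modify the disease in models had a median of -0.00 over 12 measured genes, with 5 above 0 and 7 below. The most abundant were HNRNPH1, at 1071 FPKM in knockout and 1236 FPKM in wild type, and HNRNPA1, at 892 FPKM in knockout and 1009 FPKM in wild type. PARN, a deadenylase that CELF1 can recruit, had the lowest log2 ratio of the list at -0.43 (41.0 and 55.0 FPKM), and was named after its value was seen. That ratio was -0.27 with the median of its 20 nearest genes taken off. Transcripts known to be mis-spliced in myotonic dystrophy had a median of -0.07 over 12 measured genes of 18. The 12 measured genes ranged from low to high levels, and the rest were below 1 FPKM in both groups. Among the rest, MAPT was listed at 0 with a transcript length of 0.

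**Figure D4:**
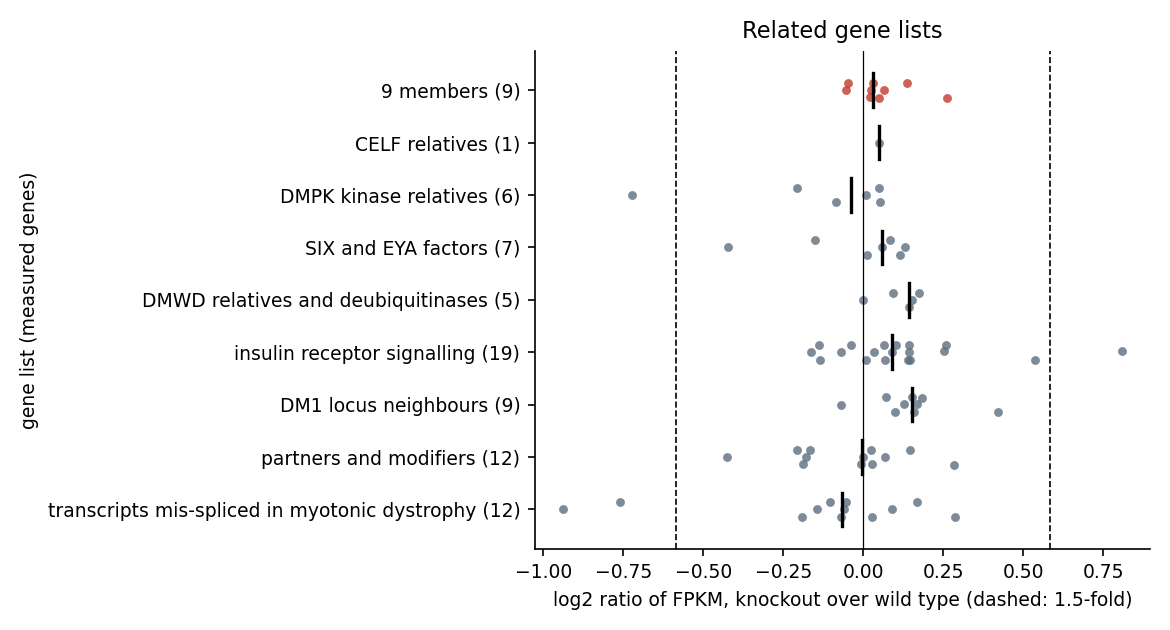
Log2 ratio of knockout over wild type for each measured gene of the 9 members (red) and of 8 related lists (grey), with the number of measured genes in parentheses, the median of each list as a black bar and 1.5-fold dashed. FOXO1 lies past the dashed line on the right, and CDC42BPG and TNNT2 are among the points past it on the left.

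The title of the series concerns binding of CNBP to G-rich elements in coding sequences. The G-rich motif TGGAG was taken as an example and counted on the coding strand of the longest coding sequence of each gene. It occurred in 93.2% of 13081 compared genes, with a median of 2.84 per kb. DMPK had the highest density of the 9 genes, 8 motifs or 4.17 per kb, above 75.9% of compared genes. INSR followed with 14 motifs or 3.38 per kb. The other 7 genes lay below the median, and MBNL1 had the lowest density, with 1 motif or 0.833 per kb. G made up 34.2% of the DMPK, 33.7% of the SIX5 and 33.4% of the DMWD coding sequence, each above at least 94.0% of compared genes, against 21.9% for MBNL1. The stretches below show the densest 60 bases in DMPK, CELF1 and INSR, and the stretches with the single MBNL1 motif and the first MBNL3 motif, which fall at nearly the same place in both genes. Motifs are in capitals, and positions count from 1 at the first base of the start codon.
DMPK coding bases 1293 to 1352: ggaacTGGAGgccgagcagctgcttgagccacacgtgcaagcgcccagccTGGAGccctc
INSR coding bases 3933 to 3992: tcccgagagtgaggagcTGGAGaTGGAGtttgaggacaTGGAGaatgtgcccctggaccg
CELF1 coding bases 1012 to 1071: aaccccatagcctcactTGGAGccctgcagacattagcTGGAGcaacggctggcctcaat
MBNL1 coding bases 208 to 267: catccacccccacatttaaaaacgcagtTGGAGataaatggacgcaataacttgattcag
MBNL3 coding bases 211 to 270: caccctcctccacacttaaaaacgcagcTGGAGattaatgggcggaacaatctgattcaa

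A match describes these letters and not a bound site, and binding and translation were not analysed here.

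**Figure D5:**
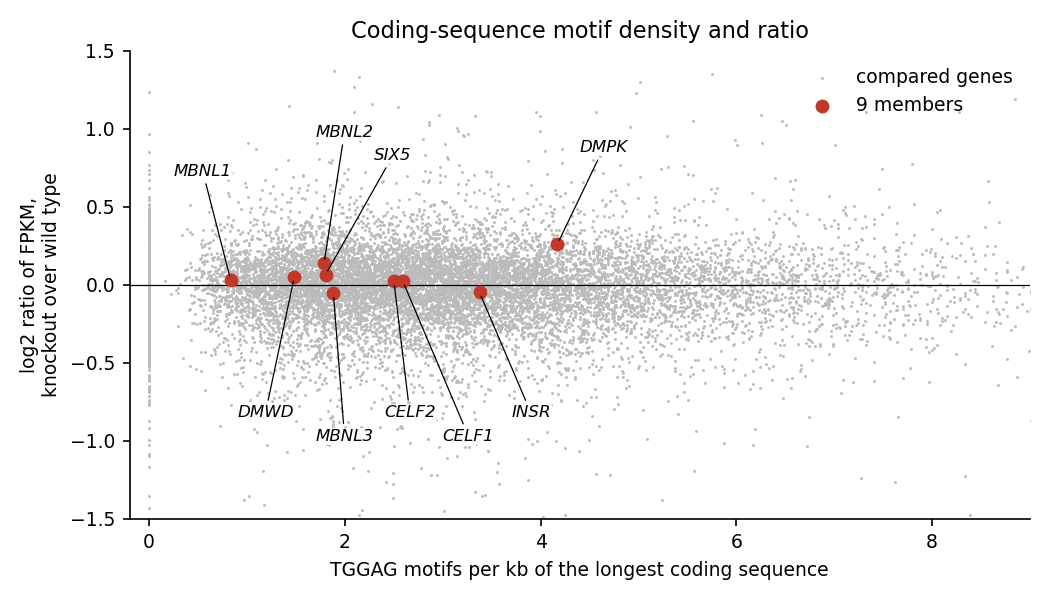
Log2 ratio of knockout over wild type (vertical) against TGGAG motifs per kb of the longest coding sequence (horizontal) for compared genes (grey) and the 9 members (red, labelled); 160 genes lie outside the axes. DMPK has the highest density of the 9, with 4.17 motifs per kb, and INSR follows with 3.38. Whether density and ratio are related was not tested.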

How the data were processed

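Libraries came from total RNA by a directional kit, per the labels' protocols. Per the submitters' processing notes, TopHat, Cufflinks and Cuffdiff were used with hg19; versions are not stated. The authors deposited 1 FPKM value per gene for each group; the unit was inferred from those tools and the size of the values, and no source says how a group's 3 libraries became 1 value. Beside these stands the longest transcript length in bases, also deposited by the authors. The planned linear model needed values per library and was not run; counts at 1.5-fold took its place.

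The members and lists were chosen with earlier results of these data known. Named were the 9 genes, CNBP, the nearest compared gene on either side of each, and in each list every measured gene at 1.5-fold or, with none, the most abundant pair; genes that overlap a member were named for their position and the marker genes from their lists, and others are said to have been named after their values were seen. A gene that the rule names is not reported here. Gene order, overlaps and coding sequences came from GENCODE release 29 by Ensembl ID (19198 of 19892 genes matched). That release is on another build, so no coordinates are given. Similar genes were the 1000 nearest in mean FPKM, and neighbours the 20 nearest compared genes on the chromosome. The functions were tested on simulated data. Alternatives were pseudocounts of 1 and 0.1, centring, the neighbours' median taken off, FPKM minimums of 5 or none, and folds of 1.2 and 2. Python 3.11.15, numpy 2.4.6, pandas 2.3.3 and matplotlib 3.10.9 were used.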

Additional observations from a re-analysis of the deposited data

How the results depend on the processing

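The count of 0 genes at 1.5-fold was 0 under all 8 alternatives run: both pseudocounts, centring on the median of all compared genes, the neighbours' median taken off, both other FPKM minimums, and folds of 1.2 and 2. Several of these could not have raised the count. Pseudocounts pull ratios towards 0, a fold of 2 is stricter, and all 9 genes pass both FPKM minimums. Centring moved the ratios only slightly. The log2 ratio of DMPK, 0.26, is just short of 1.2-fold and was 0.27, just past it, when centred. The median log2 ratio of the 9 genes ranged from -0.04 to 0.04 over 6 alternatives and was -0.04 with the neighbours' median taken off. That setting turned the direction of 4 genes, to -0.02 for MBNL1, -0.04 for CELF1, -0.05 for SIX5 and -0.04 for DMWD; the other 3 settings turned none. No paired analysis was possible because the table holds 1 value per group and no values per library, and for the same reason no replicate was left out. The depth is unknown, so that no limit of detection can be set for the levels.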
